A study of Mus musculus with 14 samples.

Results

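Axon guidance molecules carry signals between cells, and 64 of the 54332 genes in the deposited time-course table encode the 4 ligand and receptor systems named for this role: ephrins and their Eph receptors, semaphorins with plexins and neuropilins, slits with Robo receptors, and netrins. Members were chosen by gene symbol alone, so that numbered genes of the Efna, Efnb, Epha, Ephb, Plxna, Plxnb, Plxnc, Plxnd, Nrp, Slit, Robo and Ntn families and the lettered semaphorins of classes 3 to 7 entered whatever their level. RNA was measured in 10 RNA-seq libraries of epidermal stem cells (EpdSCs), which maintain the epidermis between hair follicles, with 2 biological replicates at each of 5 timepoints of SOX9 induction, called D0, W1, W2, W6 and W12. All mice were CD1, labelled male, and carried K14rtTA and TRE-myc-Sox9, that is, a doxycycline-dependent activator driven by the Krt14 promoter of the skin epithelium and a MYC-tagged Sox9 transgene under its control. D0, W1, W2 and W6 cells came from back skin of mice at postnatal days 21, 28, 35 and 63 that had 0, 1, 2 and 6 weeks of doxycycline (DOX), an injection followed by DOX feed. W12 cells are labelled as grafted and, by the study's methods, had 12 weeks of DOX in newborn skin grafted onto immunocompromised female Nude hosts, although the treatment text of their labels, which all 10 libraries share, names an injection at postnatal day 21. Grafting and 12 weeks of SOX9 therefore cannot be told apart, age rose with time on DOX up to W6, and no age-matched mice without induction were analysed here.

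Eph receptors and the ephrins are both held at the cell surface, so that they signal on contact and in both directions, and in epithelia they are known for sorting cells and keeping boundaries. Secreted class 3 semaphorins mostly act through neuropilins paired with plexins, whereas membrane-bound semaphorins of classes 4 to 6 bind plexins directly. Slits are secreted ligands of Robo receptors, and netrins are laminin-related proteins found in or near basement membranes. In skin these families are expressed by keratinocytes, vessels, nerves and fibroblasts alike.

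The cells were sorted by flow cytometry as negative for CD31, CD45, CD117, CD140a and CD34 and high for CD49f and Ly6A, and all 9 epidermal basal markers examined, Krt14 and Krt5 among them, exceeded 1 TPM in every library. TPM give a gene's share of all transcripts corrected for transcript length, so levels of different genes may be compared, but they do not reveal how deeply a library was sequenced, so that counting errors are unknown. MYC-SOX9 stood at 89.6 and 45.6 TPM at D0, 3387 and 3414 at W1, 1892 and 1469 at W2, 1108 and 859 at W6 and 606 and 903 TPM at W12. In D0 replicate 2, Xist, the RNA that silences an X chromosome, stood at 4.61 TPM and Ddx3y, which lies on the Y chromosome, at 0.0278 TPM. This goes against its label as male, and D0 replicate 1 had 0.00103 TPM of Xist and 32.1 TPM of Ddx3y. W12 libraries listed both genes, with Xist at 5.51 and 3.50 TPM and Ddx3y at 11.0 and 12.9 TPM. In W6 replicate 2 the fibroblast markers summed to 52.2 TPM, of which Dcn made up 51.2 TPM, against 1.68 TPM in W6 replicate 1. Endothelial markers summed to 0.229 to 3.05 TPM from D0 to W6 and to 73.8 and 161 TPM at W12. In sorted bulk RNA, fewer cells of a type and less RNA per cell cannot be told apart.

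Of the 64 guidance genes, 34 averaged at least 1 TPM across the libraries and were tested, and 30 lay below that filter, of which 22 stayed under 1 TPM in every library and 8 exceeded it in at least 1. None was listed at 0 throughout. The tested members nearest the filter were Sema6c with a mean of 1.85 TPM, Ephb2 with 2.43 TPM and Sema4d with 3.49 TPM, and the nearest outside it were Nrp2 with 0.963 TPM, Nrp1 with 0.606 TPM and Plxnd1 with 0.593 TPM. Among the tested members 21 had a mean of at least 10 TPM and 2 of at least 100 TPM, the ephrin ligand gene Efna1 and the Eph receptor gene Ephb6.

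Ligands and receptors of the ephrin system passed the filter together, whereas semaphorins and plexins passed without neuropilins. All 5 ephrin-A genes, 2 of 3 ephrin-B genes, 3 of 9 EphA genes and 4 of 5 EphB genes were tested. So were 11 of 20 semaphorin and 5 of 9 plexin genes, but neither of the 2 neuropilin genes. Of the remaining families, 1 of 3 slit, 2 of 4 Robo and 1 of 4 netrin genes passed.

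Summed over a family, the ephrin, EphB and plexin transcripts were highest at W1 or W2, whereas semaphorin transcripts were highest at D0, and EphA transcripts at D0 and W1. Ephrin-A transcripts summed to 260 ± 36.4 TPM at D0 (SD, n = 2, as for the sums that follow), 353 ± 23.9 TPM at W2 and 202 ± 29.2 TPM at W12. The ephrin-B sum went from 96.1 ± 13.5 TPM at D0 to 161 ± 12.3 TPM at W2 and 34.8 ± 1.5 TPM at W12. EphA sums were 127 ± 18.7, 103 ± 8.72 and 47.8 ± 6.78 TPM at the same timepoints, and the W1 sum of 118 ± 2.11 TPM differed from D0 by less than the SD of the D0 libraries. The sum of EphB transcripts was 201 ± 72.9 TPM at D0, 266 ± 8.55 TPM at W2 and 62.9 ± 12.1 TPM at W12, so that W2 differed from D0 by less than the SD of the D0 libraries, while both W12 libraries lay below both D0 libraries.

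Semaphorin transcripts summed to 436 ± 89.8 TPM at D0, the most of any family, and to 234 ± 1.31, 217 ± 19.1, 171 ± 2.14 and 143 ± 4.95 TPM at W1, W2, W6 and W12. All 8 later libraries lay below both D0 libraries. Plexin sums went from 141 ± 44.3 TPM at D0 through 195 ± 12.9 TPM at W1 to 52.8 ± 7.56 TPM at W12. Robo sums stayed between 16.0 and 29.0 TPM in every library, although, as described below, the levels of its 2 tested genes moved in opposite directions. All 64 members together summed to 1101 and 1501 TPM at D0 and to 537 and 616 TPM at W12, a smaller share of the transcriptome in both W12 libraries than in any earlier one.

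**Figure D1:**
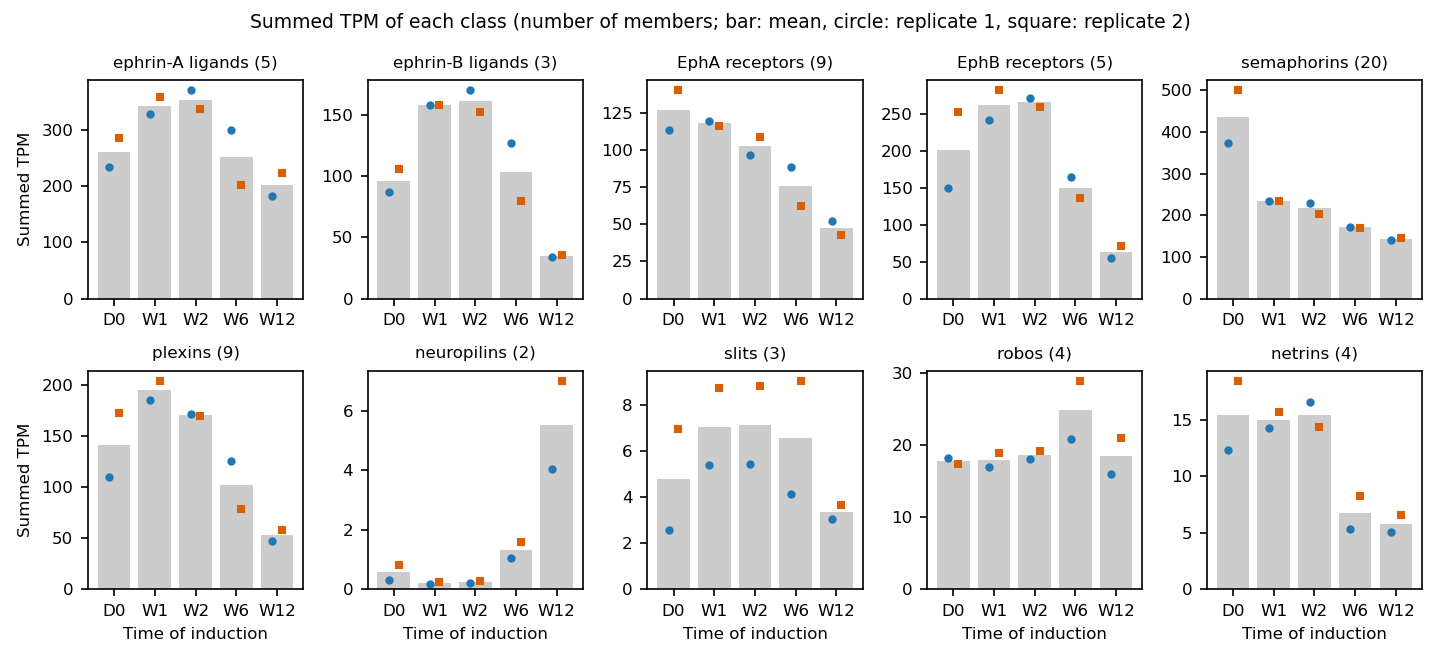
Summed TPM of each guidance family (vertical, linear axes from 0) at each timepoint (horizontal), with bars for the mean of 2 replicates and points for the libraries. The semaphorin sum was 436 TPM at D0 and 143 TPM at W12, while the neuropilin sum was 0.559 TPM at D0 and 5.53 TPM at W12.

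Changes were tested with limma on log2(TPM + 1) over the 13110 genes that passed the filter, and a gene was called at a Benjamini-Hochberg adjusted P under 0.05. On this scale the change of a low gene is understated. The 4 comparisons with D0 share the D0 libraries, and each is given with its own values.

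The semaphorin gene Sema6a and the ephrin gene Efna4 were higher at W1 and W2, when Sema3c, Sema3d and Sema3f, which encode secreted semaphorins, were already lower, and at W12 most called members were lower. At W1, 9 of 34 members were called, 6 higher and 3 lower, which is 26.5% against a background of 9.89 percent of all genes tested, 5.79 percent higher and 4.1 percent lower. The 6 higher were Sema6a, Efna4, Robo2, Sema6c, Efnb1 and Efna2, and the 3 lower were Sema3d, Sema3f and Sema3c. At W2 again 9 members were called (background 15.7 percent, with 9.06 percent higher and 6.64 percent lower), of which 5 were higher and 4 lower, but a fit to the D0 and W2 libraries alone called 3 higher and 5 lower. Both counts moved when single libraries were left out. Without either W1 library 2 calls were left at W1, without either W12 library 5, and without either W6 library there were 12, 7 higher and 5 lower. At W2 there were 5 and 3 calls without W2 replicate 1 or replicate 2, and 8 to 10 without any other library. Without D0 replicate 2, the library that goes against its label, there were 6 calls at W1, 5 higher and 1 lower, and 9 at W2, 7 higher and 2 lower. Of 8 calls at W1 and 9 at W2 that were among the 5 largest rises or falls, those of Efna4 and Sema6a at both timepoints and of Sema3f at W2 passed under every alternative tried. With no filter on low values, the calls of Efna2, Efnb1, Robo2, Sema3c, Sema3d, Sema3f and Sema6c at W1 and of Epha2, Ephb2, Robo2, Sema3c and Sema3d at W2 were lost. In fits to the 4 libraries compared, the W1 calls of Efnb1, Robo2, Sema3c, Sema3d, Sema3f and Sema6c and the W2 calls of Efnb1 and Robo2 were lost.

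At W6, 14 members were called, 5 higher and 9 lower (background 32.4 percent for both directions, 18.3 percent higher and 14.1 percent lower). Without D0 replicate 2, 9 were called, 5 higher and 4 lower. At W12, 22 members were called (background 43.0 percent), and 19 of them were lower and 3 higher, where 25.1 percent and 17.9 percent of all genes were. The 3 higher genes, Sema6a, Robo2 and Sema3b, were also higher at W6. Among the largest rises and falls called, up to 5 each way, those of Ephb2 and Robo1 at W6 were lost with no filter. Those of Efna4, Ephb2 and Robo1 at W6 and of Robo2 at W12 were lost in fits to the 4 libraries compared. In that fit the W6 calls of Ephb3, Ntn4, Plxna2 and Plxnb1 were lost too. Without D0 replicate 2 the W12 calls numbered 16, of which 13 were lower. With no filter on low values, all 64 members entered the fit and 28 were called at W12, 12 higher and 16 lower.

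The median change of the tested members on the log2 scale was 0.36, 0.29, −0.35 and −0.93 at W1, W2, W6 and W12, beside medians of 0.09, 0.06, 0.08 and −0.08 over all genes tested. Between W2 and W6, 11 members were called, 1 higher and 10 lower (background 16.3 percent, with 7.99 percent higher and 8.31 percent lower), with a median of −0.56 against 0.01. Leaving out either W2 library left 1 call, and leaving out either W1 library or W6 replicate 2 left 5, and leaving out either W12 library left 4. With no filter on low values 2 were called in this step, both higher, so that all 10 lower calls were lost. Between W6 and W12, 12 were called lower and 0 higher by limma (background 20.2 percent, with 6.66 percent higher and 13.5 percent lower), with 21 members at an unadjusted P under 0.05. With no filter on low values 4 were higher and 7 lower. Without W12 replicate 1, 3 were called, without W12 replicate 2, 6, and without W6 replicate 1, 6 lower and 1 higher. Under median-ratio scaling, which raised the median of all genes by 0.14 in this step, 7 members were called lower and 1 higher.

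Over the time course as a whole, 29 of 34 members varied by limma's F test over the 4 contrasts with D0, or 85.3% (background 57.5 percent). The mean TPM was highest at W1 for 16 of the 34 (47.1%), where 21.4% of all genes tested peaked, and at W12 for 0, where 20.1% of all genes did. The remaining members peaked at D0 (9), W2 (6) and W6 (3).

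**Figure D2:**
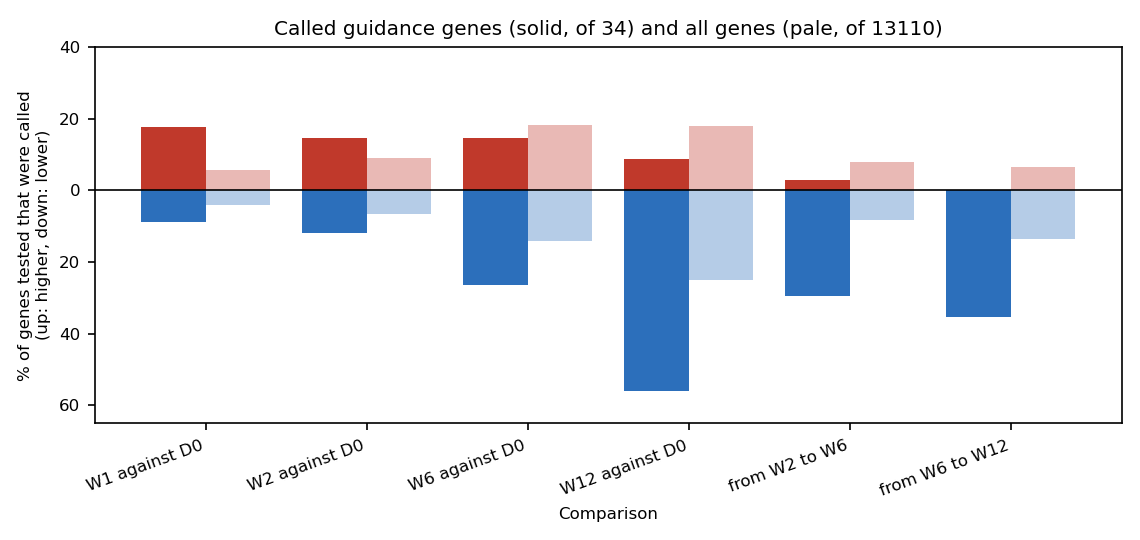
Percent of genes called higher (up) or lower (down) at an adjusted P under 0.05 for each comparison (horizontal), for the 34 tested guidance genes and for all 13110 genes tested. At W12 19 of 34 guidance genes were lower and 3 higher, against 25.1 and 17.9 percent of all genes.

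The pattern met most often over the 4 comparisons with D0 was a call only at W12. Efna3, Efnb2, Epha1, Ephb6, Plxna1, Plxna3, Plxnb2, Sema4a and Sema4b (9 genes) passed the test as lower at W12 and in no earlier comparison, a pattern that 12.8 percent of all genes tested had. Ephb3, Ntn4, Plxna2, Plxnb1 and Robo1 were lower at both W6 and W12 and not called before (background 6.86 percent). The W6 calls of all these genes were lost without D0 replicate 2 and in the fit to the D0 and W6 libraries alone. Sema3c, Sema3d and Sema3f were lower, and Robo2 and Sema6a higher, at all 4 (background 2.08 percent lower and 2.04 percent higher). Efnb1 was the only tested member called in both directions (background 1.92 percent), and 8 of 34 were called in none, where 42.6 percent of all genes were: Efna1, Efna5, Epha4, Ephb4, Sema4c, Sema4d, Sema5a and Slit3.

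**Figure D3:**
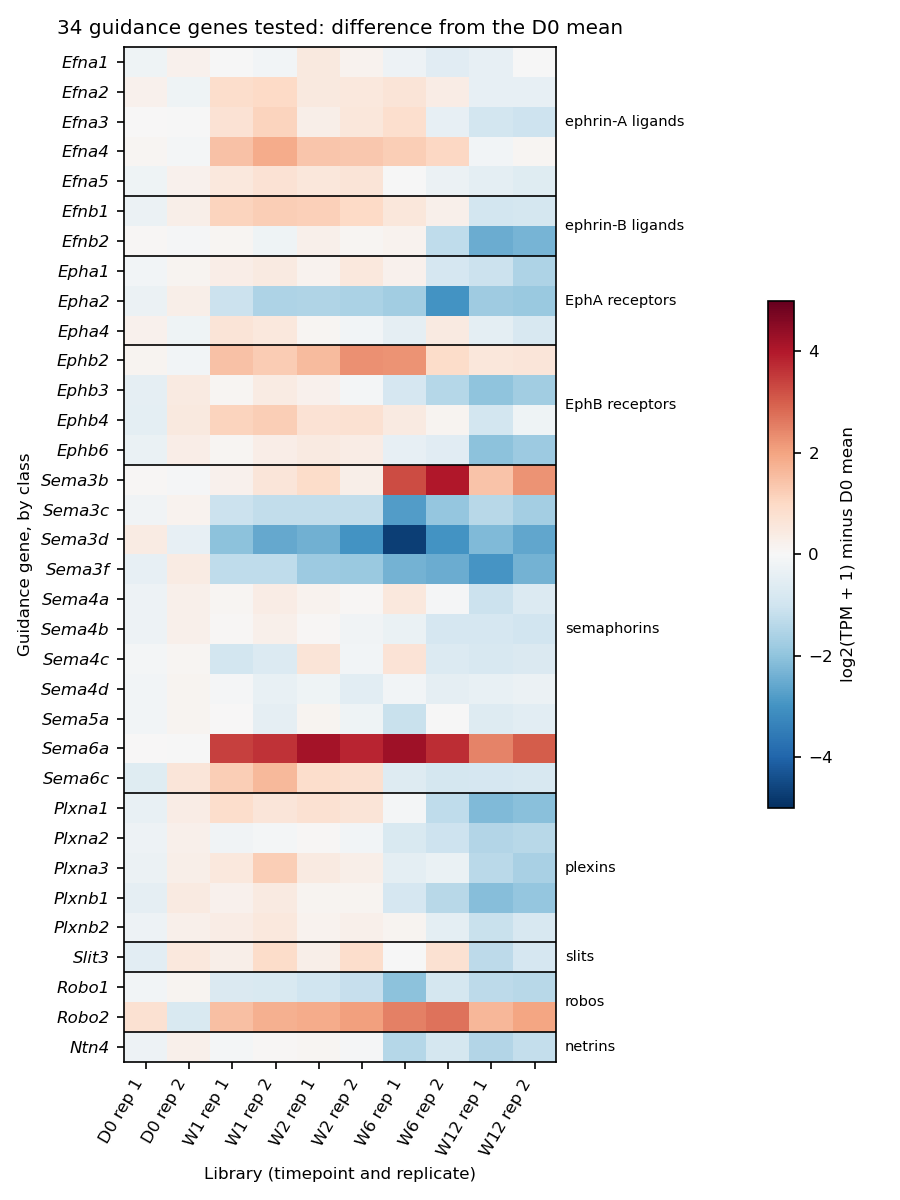
Difference of log2(TPM + 1) from the D0 mean (colour, limited to between −5 and 5) for the 34 tested guidance genes (rows, by family) in the 10 libraries (columns). Sema6a is raised in all 8 libraries after D0, Sema3c, Sema3d and Sema3f are lowered in all 8, and the 9 genes called only at W12, such as Ephb6 and Efnb2, are lowest in the W12 columns.

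RefSeq promoter windows (GRCm38.p6) were matched to 56 of the 64 members by symbol, all but Efnb3, Ntn1, Plxna1, Plxna4, Sema3b, Sema3f, Sema6a and Slit1, and the 250 bases before each transcription start were searched on both strands for ACAATG and ACAAAG, forms of the short motif that SOX proteins bind. At least 1 match lay in such a window for 12 of the 56 members (21.4%), compared with 28.2% of all 27025 genes with a window. Of the 9 members called at W1 or W2 that had a window, 3 held a match: Efna2 (window at chr10:80179232-80179481, plus strand), Efna4 (chr3:89338029-89338278, minus strand) and Sema3d (chr5:12382916-12383165, plus strand). Efna2 and Efna4 were higher and Sema3d lower after induction. Their windows are shown 5′ to 3′ along the gene, because they are the early-changing members that hold a match, with the matched letters or their reverse complement in capitals. A match is a description of these letters and no evidence of binding.
Efna2: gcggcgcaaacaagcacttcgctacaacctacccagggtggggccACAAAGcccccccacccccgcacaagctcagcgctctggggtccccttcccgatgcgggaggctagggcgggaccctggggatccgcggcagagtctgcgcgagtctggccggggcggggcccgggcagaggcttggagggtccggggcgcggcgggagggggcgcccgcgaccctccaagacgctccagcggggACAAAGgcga
Efna4: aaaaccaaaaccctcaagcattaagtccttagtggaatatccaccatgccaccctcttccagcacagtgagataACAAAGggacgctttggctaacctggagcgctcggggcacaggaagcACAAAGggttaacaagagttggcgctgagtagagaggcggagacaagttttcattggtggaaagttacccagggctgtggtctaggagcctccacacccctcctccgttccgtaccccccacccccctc
Sema3d: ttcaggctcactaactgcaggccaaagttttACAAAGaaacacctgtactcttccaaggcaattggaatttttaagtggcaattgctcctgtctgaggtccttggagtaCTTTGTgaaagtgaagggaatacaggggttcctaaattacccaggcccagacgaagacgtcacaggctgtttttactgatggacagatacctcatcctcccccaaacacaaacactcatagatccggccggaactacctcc

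Among the ephrin-A ligands, which are tethered to the membrane by a lipid anchor, Efna4 rose early and returned, while Efna1 was the most abundant and passed in no comparison with D0. Efna1 (chr3:89271733-89281142, minus strand, GENCODE M21 positions on GRCm38 as for the genes that follow) had values of 151 and 205 TPM at D0, 174 and 161 at W1, 247 and 198 at W2, 148 and 119 at W6 and 132 and 174 TPM at W12. It made up 44.9% to 78.0% of the ephrin-A sum, and its D0 values overlapped those of W2 and W12. From W2 to W6 it was lower by limma (log2 change −0.73 ± 0.21 SE, adjusted P = 0.0479), with neither W6 library reaching the W2 values. This call was lost with no filter on low values.

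Efna4 (chr3:89333390-89338028, minus strand) measured 14.1 and 12 TPM at D0, 37.4 and 49.8 at W1, 35.8 and 34.5 at W2, 32.0 and 27.9 at W6 and 11.7 and 13.9 TPM at W12. All 6 libraries from W1 to W6 lay above both D0 libraries, and the W12 values overlapped those of D0. The log2 change from D0 was 1.66 ± 0.18 at W1 (adjusted P = 0.0012), 1.37 ± 0.18 at W2 (adjusted P = 0.00198) and 1.14 ± 0.18 at W6 (adjusted P = 0.00261) by limma. In the fit to the D0 and W6 libraries alone the W6 change had an adjusted P of 0.0521. From W6 to W12 it fell by 1.17 ± 0.18 (adjusted P = 0.00432), leaving a difference from D0 of −0.02 ± 0.18.

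Efna2 ranged from 4.39 to 13.3 TPM and was called against D0 only at W1 (0.93 ± 0.20, adjusted P = 0.0204 by limma), then fell from W6 to W12 by 0.93 ± 0.20 (adjusted P = 0.0144). With no filter on low values its W1 call was lost. Efna3 ranged from 28.03 to 126 TPM, highest in W1 replicate 2, and its W6 replicates stood far apart at 105 and 44.1 TPM. Both W12 values lay below all others, and the W12 change of −0.97 ± 0.34 passed at an adjusted P of 0.0462. Efna5 ranged from 2.72 to 8.33 TPM and passed from W2 to W6 (−0.77 ± 0.22, adjusted P = 0.043) and in the F test over the time course (adjusted P = 0.00682), but in no comparison with D0. Its call from W2 to W6 was lost with no filter on low values. Efna1, Efna3 and Efna4 are neighbours, with 32.8 kb between Efna1 and Efna3 and 10.4 kb between Efna3 and Efna4, and of the 3 only Efna4 was called at W1. Whether their changes differed was not tested.

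The ephrin-B ligands span the membrane and signal into the cell that carries them. Efnb1 (chrX:99136130-99148991, plus strand) stood at 41.8 and 63.7 TPM at D0, 112 and 121 at W1, 118 and 105 at W2, 77.7 and 61.7 at W6 and 26.6 and 27.9 TPM at W12. Its level was above D0 at W1 and W2 and below it at W12, with no overlap between these groups. By limma the change was 1.16 ± 0.21 at W1 (adjusted P = 0.00971), 1.10 ± 0.21 at W2 (adjusted P = 0.00935) and −0.90 ± 0.21 at W12 (adjusted P = 0.00847). The W6 values overlapped those of D0, and the step from W6 to W12 was −1.32 ± 0.21 (adjusted P = 0.00422). The early calls were lost when a library of the compared timepoint was left out, with an adjusted P of 0.0897 without W1 replicate 2 and 0.0758 without W2 replicate 1.

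Efnb2 (chr8:8617434-8661242, minus strand), known elsewhere as a marker of arterial vessels, had values of 44.6 and 41.6 TPM at D0, 46.2 and 36.7 at W1, 51.7 and 46.8 at W2, 49.1 and 17.4 at W6 and 6.99 and 7.90 TPM at W12. It stayed level to W2, split between the W6 replicates and was lowest in both W12 libraries. At W12 it was lower than at D0 by limma (−2.39 ± 0.38, adjusted P = 0.00162), the largest fall of an ephrin gene in the comparisons with D0. Efnb3 was under 1 TPM in every library.

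The EphA receptors bind mainly ephrin-A ligands, and Epha1 and Epha2 are the members known from epithelia. Epha2 (chr4:141301240-141329384, plus strand) measured 45.7 and 69.0 TPM at D0, 25.8 and 18.5 at W1, 19.2 and 18.1 at W2, 16.1 and 6.30 at W6 and 15.53 and 14.7 TPM at W12. Every library after D0 lay below both D0 libraries. By limma the change was −1.32 ± 0.37 at W1 (adjusted P = 0.0585), −1.54 ± 0.37 at W2 (adjusted P = 0.0255), −2.36 ± 0.37 at W6 (adjusted P = 0.00234) and −1.83 ± 0.37 at W12 (adjusted P = 0.00486). Without D0 replicate 2, the W2 change was −1.25 with an adjusted P of 0.118, and this call was lost too without either W2 or either W12 library.

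Epha1 (chr6:42358487-42373268, minus strand) made up 38.9% to 67.7% of the EphA sum and was lower only at W12. It stood at 46.7 and 55.4 TPM at D0, 64.4 and 70.6 at W1, 57.1 and 73.7 at W2, 58.9 and 28.1 at W6 and 23.5 and 16.7 TPM at W12. Both W12 values lay below every other library (−1.32 ± 0.32, adjusted P = 0.0108 by limma). Epha4, which also binds ephrin-B ligands, ranged from 10.03 to 28.9 TPM and was called in no comparison. The other 6 EphA genes had means below 1 TPM.

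Among the EphB receptors, which bind mainly ephrin-B ligands, Ephb6 was the most abundant and Ephb2 the only one called higher. Ephb6 (chr6:41605482-41620509, plus strand), whose product lacks kinase activity, had values of 107 and 169 TPM at D0, 144 and 169 at W1, 186 and 176 at W2, 102 and 91.3 at W6 and 31.9 and 37.0 TPM at W12. It made up 51.9% to 71.7% of the EphB sum. The W12 values lay far below all others, with a change from D0 of −1.94 ± 0.21 (adjusted P = 0.000243 by limma). It was also lower from W2 to W6 (−0.90 ± 0.21, adjusted P = 0.0276) and from W6 to W12 (−1.47 ± 0.21, adjusted P = 0.00297). The former call was lost with no filter on low values.

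Ephb2 (chr4:136647539-136835988, minus strand) measured 0.527 and 0.269 TPM at D0, 2.83 and 2.35 at W1, 3.16 and 5.75 at W2, 5.61 and 1.64 at W6 and 1.06 and 1.10 TPM at W12. All 8 later libraries lay above D0, at 5.75 TPM or less. The change was 1.93 ± 0.41 at W2 (adjusted P = 0.016 by limma) and 1.59 ± 0.41 at W6 (adjusted P = 0.0196), and without D0 replicate 2 the adjusted P was 0.0732 and 0.102. The W6 call was lost too without W6 replicate 1 (0.92, adjusted P = 0.0637) and with quantile normalization (1.22, adjusted P = 0.0728), and the W2 call without W2 replicate 2 (1.58, adjusted P = 0.1295).

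Ephb3 ranged from 6.93 to 42.6 TPM and was lower at W6 (−1.14 ± 0.32, adjusted P = 0.026) and W12 (−1.88 ± 0.32, adjusted P = 0.00218 by limma). Its W6 call was lost without D0 replicate 2 and in the fit to the D0 and W6 libraries alone. Ephb4, known as the receptor for ephrin-B2 in veins, ranged from 14.4 to 68.0 TPM, highest in W1 replicate 2, and passed the F test over the time course (adjusted P = 0.0144) but none of the 6 comparisons of timepoints, with 1.17 ± 0.33 at W1 (adjusted P = 0.0622). Its D0 replicates, at 19.7 and 40.8 TPM, were further apart than D0 and W12 on average.

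Semaphorins held the largest changes in both directions. Secreted Sema3c, Sema3d and Sema3f made up 83.8% and 83.0% of semaphorin transcripts in the D0 libraries but 29.4% and 43.6% in the W6 libraries. In the W12 libraries they made up 66.5% and 59.0%. Sema3c (chr5:17574281-17730268, plus strand) was the most abundant semaphorin on average, at 155 and 201 TPM at D0, 83.1 and 73.7 at W1, 75.4 and 73.6 at W2, 24.5 and 46.0 at W6 and 67.4 and 54.3 TPM at W12. Every library after D0 lay below both D0 libraries, and W6 was the lowest. The change from D0 was −1.16 ± 0.27 at W1 (adjusted P = 0.0297), −1.23 ± 0.27 at W2 (adjusted P = 0.0176), −2.36 ± 0.27 at W6 (adjusted P = 0.000558) and −1.53 ± 0.27 at W12 (adjusted P = 0.00263) by limma. From W6 to W12 it differed by 0.83 ± 0.27, which did not pass (adjusted P = 0.0624). Without D0 replicate 2 the adjusted P was 0.119 at W1 and 0.0858 at W2. The W1 call was lost too without either W1, either W2 or either W12 library, and the W2 call without either W2 library.

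Sema3d (chr5:12383385-12588948, plus strand) stood at 56.2 and 31.6 TPM at D0, 9.30 and 6.31 at W1, 7.10 and 4.51 at W2, 0.658 and 4.38 at W6 and 8.36 and 6.11 TPM at W12. The later values lay well below D0 in all 8 libraries. Its change of −3.85 ± 0.52 at W6 was the largest fall of any member (adjusted P = 0.00115 by limma), after −2.31 ± 0.52 at W1 (adjusted P = 0.0253) and −2.69 ± 0.52 at W2 (adjusted P = 0.0104). At W12 it was −2.40 ± 0.52 (adjusted P = 0.00653), with an adjusted P of 0.0505 without W12 replicate 2. The W1 call was lost without D0 replicate 1 (adjusted P = 0.0908) and without either W1 or either W12 library, and the W2 call without W2 replicate 2 (−2.41, adjusted P = 0.0841).

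Sema3f (chr9:107681500-107710475, minus strand) had values of 102 and 183 TPM at D0, 56.1 and 55.5 at W1, 38.4 and 36.9 at W2, 25.5 and 23.6 at W6 and 17.0 and 26.1 TPM at W12. Unlike Sema3c and Sema3d, its mean was lowest at W12. The change was −1.27 ± 0.28 at W1 (adjusted P = 0.0218), −1.83 ± 0.28 at W2 (adjusted P = 0.00338), −2.43 ± 0.28 at W6 (adjusted P = 0.000532) and −2.64 ± 0.28 at W12 (adjusted P = 0.000192) by limma. The W1 call was lost without D0 replicate 2 (−0.86, adjusted P = 0.0714) and without either W1 library.

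Sema3b (chr9:107597674-107609229, minus strand), whose gene lies 72.3 kb from Sema3f and on the same strand, moved the other way. It measured 0.348 and 0.224 TPM at D0, 0.478 and 0.977 at W1, 1.40 and 0.554 at W2, 11.4 and 19.6 at W6 and 2.46 and 5.09 TPM at W12. The W6 and W12 libraries lay above all earlier ones. The change from D0 was 3.64 ± 0.37 at W6 (adjusted P = 0.000334) and 1.84 ± 0.37 at W12 (adjusted P = 0.00485) by limma. It rose from W2 to W6 by 3.05 ± 0.37 (adjusted P = 0.00289), the only one of the 34 tested members called higher in that step. From W6 to W12 it fell by 1.80 ± 0.37 (adjusted P = 0.0128), which did not pass without W12 replicate 1 (adjusted P = 0.0988).

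Of the membrane-bound semaphorins, Sema6a was the member with the largest rise. Sema6a (chr18:47235598-47368870, minus strand), a ligand of class A plexins, stood at 0.432 and 0.399 TPM at D0, 14.1 and 16.1 at W1, 24.6 and 18.6 at W2, 25.6 and 17.2 at W6 and 6.81 and 10.6 TPM at W12. All 8 later libraries lay above both D0 libraries, and its W12 libraries lay below those of W1, W2 and W6. The log2 change was 3.51 ± 0.26 at W1 (adjusted P = 0.000212), 3.98 ± 0.26 at W2 (adjusted P = 9.16e-05), 3.96 ± 0.26 at W6 (adjusted P = 6.9e-05) and 2.75 ± 0.26 at W12 (adjusted P = 0.000125) by limma. From W6 to W12 it fell by 1.21 ± 0.26 (adjusted P = 0.0157).

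Sema6c (chr3:95160457-95174024, plus strand) had values of 0.394 and 2.18 TPM at D0, 3.97 and 5.52 at W1, 2.85 and 2.65 at W2, 0.345 and 0.136 at W6 and 0.189 and 0.220 TPM at W12. It was higher at W1 by limma (1.43 ± 0.36, adjusted P = 0.0416) and lower from W2 to W6 (−1.60 ± 0.36, adjusted P = 0.0246), but its D0 replicates stood apart and the W1 call passed under only 5 of 19 alternatives. The fall from W2 to W6 was lost without W2 replicate 1 (adjusted P = 0.143), W2 replicate 2 (adjusted P = 0.114) or W6 replicate 2 (adjusted P = 0.0859) and with no filter on low values. Among class 4 semaphorins, which bind mainly class B plexins, Sema4a ranged from 16.7 to 53.3 TPM and Sema4b from 4.85 to 12.7 TPM, and both were lower at W12 (−0.88 ± 0.25, adjusted P = 0.0213, and −0.91 ± 0.25, adjusted P = 0.0166 by limma). Sema4c, Sema4d and Sema5a ranged from 2.66 to 14.1 TPM and were called in no comparison.

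**Figure D4:**
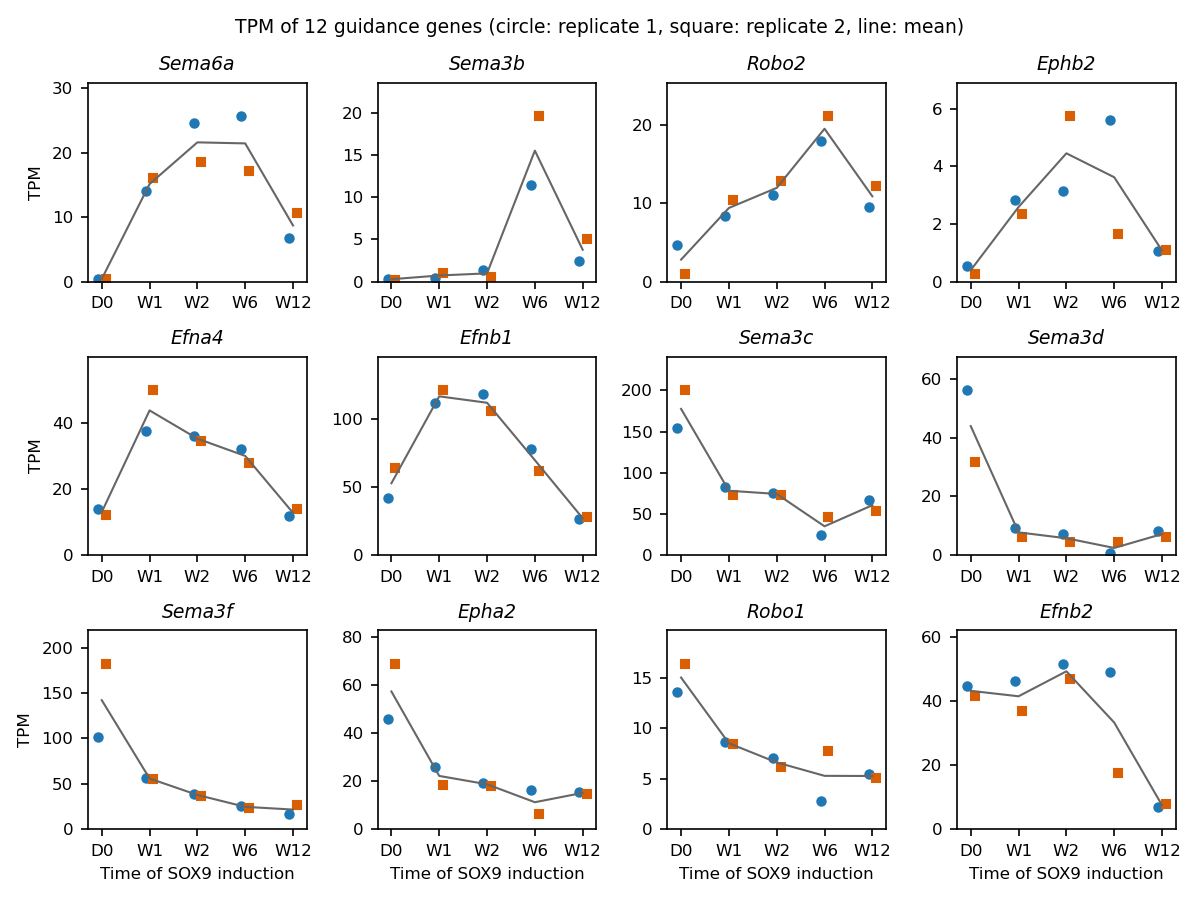
TPM (vertical, linear axes from 0) of 12 guidance genes at each timepoint (horizontal), with points for the libraries and a line through the mean of 2 replicates. Sema6a goes from 0.432 and 0.399 TPM at D0 to 14.1 and 16.1 TPM at W1, and Sema3f from 102 and 183 TPM at D0 to 17.0 and 26.1 TPM at W12.

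Plexins are the receptors for semaphorins, and all 5 tested plexin genes were lower at W12, where 25.1 percent of all genes tested were, while none of these 5 was called higher at any timepoint. Plxnb2 (chr15:89155549-89180788, minus strand) made up 48.6% to 71.6% of plexin transcripts. It measured 61.1 and 87.7 TPM at D0, 94.1 and 106 at W1, 83.3 and 87.1 at W2, 80.9 and 51.3 at W6 and 33.3 and 41.7 TPM at W12. Both W12 values lay below every earlier library (−0.96 ± 0.25, adjusted P = 0.0138 by limma).

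Plxna1 (chr6:89316314-89362620, minus strand), which pairs with neuropilins and also binds Sema6 proteins, stood at 18.0 and 30.2 TPM at D0, 43.5 and 36.0 at W1, 40.8 and 37.1 at W2, 21.6 and 9.12 at W6 and 4.25 and 4.69 TPM at W12. W1 and W2 libraries were above D0 in each case, but the differences of 0.74 ± 0.36 and 0.71 ± 0.36 did not pass (adjusted P = 0.241 and 0.216). At W12 it was lower by limma (−2.16 ± 0.36, adjusted P = 0.00204). The steps from W2 to W6 (−1.40 ± 0.36, adjusted P = 0.0353) and from W6 to W12 (−1.47 ± 0.36, adjusted P = 0.024) were both lost when a library was left out, the former without W6 replicate 2 (−0.82, adjusted P = 0.123) or either W1, W2 or W12 library and the latter without W6 replicate 1 (−0.89, adjusted P = 0.0877) or either W12 library.

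Plxnb1 (chr9:109095389-109119917, plus strand), a receptor for Sema4d, had values of 18.8 and 36.8 TPM at D0, 30.4 and 36.3 at W1, 29.3 and 29.3 at W2, 14.2 and 9.48 at W6 and 5.31 and 6.20 TPM at W12. Its W6 and W12 libraries lay below all earlier ones. The change was −1.12 ± 0.30 at W6 (adjusted P = 0.0224) and −2.02 ± 0.30 at W12 (adjusted P = 0.00117) by limma. Its W6 call was lost without D0 replicate 2 and in the fit to the D0 and W6 libraries alone. Plxna2 ranged from 1.64 to 7.71 TPM and Plxna3 from 1.85 to 19.2 TPM, and their W12 changes were −1.43 ± 0.23 (adjusted P = 0.00155) and −1.47 ± 0.28 (adjusted P = 0.00367).

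The Robo receptors moved apart. Robo2 (chr16:73891839-74411825, minus strand) measured 4.64 and 0.987 TPM at D0, 8.40 and 10.5 at W1, 11.1 and 12.9 at W2, 17.9 and 21.2 at W6 and 9.55 and 12.3 TPM at W12, so that every later library exceeded both D0 libraries. By limma it rose by 1.63 ± 0.41 at W1 (adjusted P = 0.0409), 1.95 ± 0.41 at W2 (adjusted P = 0.0152), 2.61 ± 0.41 at W6 (adjusted P = 0.00239) and 1.82 ± 0.41 at W12 (adjusted P = 0.00807). The W1 call was lost when any library but D0 replicate 1 was left out, with a change of 0.88 without D0 replicate 2. It was also lost in limma with a replicate block (adjusted P = 0.0639) and a pseudocount of 0.1 TPM (adjusted P = 0.0528). The W12 call was lost without W12 replicate 2, with a change of 1.66. The W2 call was lost without W2 replicate 1 (adjusted P = 0.069) or replicate 2 (adjusted P = 0.103). Without D0 replicate 2 the changes at W2 and W12 passed but were smaller, at 1.2 (adjusted P = 0.0222) and 1.07 (adjusted P = 0.0158).

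Robo1 (chr16:72308306-73046095, plus strand), 846 kb away from Robo2 on the opposite strand, stood at 13.6 and 16.4 TPM at D0, 8.60 and 8.44 at W1, 7.03 and 6.20 at W2, 2.81 and 7.76 at W6 and 5.42 and 5.12 TPM at W12. All later libraries lay below D0. The falls of 1.47 ± 0.34 at W6 (adjusted P = 0.0119) and 1.35 ± 0.34 at W12 (adjusted P = 0.0122) passed in limma, the former not without D0 replicate 2 (−1.34, adjusted P = 0.0702). The W6 replicates stood apart, and the W6 change was −0.87 without replicate 1 (adjusted P = 0.0187) and −2.07 without replicate 2 (adjusted P = 0.000603). At D0 both libraries listed more Robo1 than Robo2, and from W2 on all 6 listed more Robo2 than Robo1.

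Of the slit genes, which encode their ligands, only Slit3 passed the filter. Slit3 (chr11:35121224-35708507, plus strand) had values of 2.47 and 6.37 TPM at D0, 5.22 and 8.63 at W1, 5.13 and 8.19 at W2, 3.95 and 7.49 at W6 and 1.03 and 1.86 TPM at W12. Replicate 2 was higher at every timepoint, the timepoints from D0 to W6 overlapped, and of the 6 comparisons of timepoints the step from W6 to W12 alone passed (−1.43 ± 0.43, adjusted P = 0.0496 by limma). In the F test over the time course it passed as well (adjusted P = 0.0395).

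Ntn4 (chr10:93640681-93747207, plus strand), a netrin that binds laminins of basement membranes, made up 92.1% to 99.9% of netrin transcripts. It measured 12.3 and 18.4 TPM at D0, 14.2 and 15.7 at W1, 16.4 and 14.3 at W2, 5.05 and 7.70 at W6 and 4.83 and 6.01 TPM at W12. The values of W6 and W12 lay below all earlier ones and overlapped each other. The change was −1.15 ± 0.25 at W6 (adjusted P = 0.00962) and −1.33 ± 0.25 at W12 (adjusted P = 0.00342) by limma, and most of it fell between W2 and W6 (−1.17 ± 0.25, adjusted P = 0.0199). Its W6 call was lost without D0 replicate 2 and in the fit to the D0 and W6 libraries alone. With no filter on low values the call from W2 to W6 was lost.

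Several members below the filter were higher at W12. The neuropilin Nrp2 (chr1:62703285-62818695, plus strand), a co-receptor for class 3 semaphorins and vascular growth factors, stood at 0.234 and 0.734 TPM at D0, 0.152 and 0.213 at W1, 0.117 and 0.188 at W2, 0.999 and 1.08 at W6 and 2.41 and 3.51 TPM at W12. Nrp1 was at 0.500 TPM or less up to W6 and at 1.65 and 3.50 TPM at W12. Robo4, the Robo gene known from blood vessels, was at 0.0563 TPM or less up to W6 and at 1.06 and 3.63 TPM at W12. These 3 genes thus reached more than 1 TPM in both W12 libraries, as did Slit2 with 1.27 and 1.07 TPM.

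Both W12 libraries exceeded all 8 earlier ones for 10 of the 30 low members, Nrp1, Nrp2, Ntn1, Plxna4, Robo4, Sema3g, Sema6b, Sema6d, Sema7a and Slit2, or 33.3% (background 6.05 percent of the 25855 genes below the filter with a TPM above 0). In a limma fit without the filter, 9 of the 30 were called higher at W12 and 0 lower, with 12 at an unadjusted P under 0.05 (background 3.97 percent higher and 0.526 percent lower). The largest changes were 1.68 ± 0.29 for Nrp1 (adjusted P = 0.012), 1.63 ± 0.33 for Robo4 (adjusted P = 0.0219), 1.42 ± 0.25 for Nrp2 (adjusted P = 0.0134) and 1.25 ± 0.20 for Sema6b (adjusted P = 0.00972). At W1 and W2 none of the 30 was called in that fit, with 1 and 2 at an unadjusted P under 0.05. At W6 and from W2 to W6 it called 1 of them, Ntn5, a netrin gene, which was higher at 0.0520 and 0.0530 TPM at W6 and listed at 0 in the other 8 libraries.

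Endothelial markers were also higher at W12. All 7 of the list exceeded 1 TPM in both W12 libraries and none in both libraries of any earlier timepoint. Pecam1, which encodes the CD31 that the sort excluded, had values of 26.1 and 59.8 TPM at W12 and at 1.14 TPM or less before, and Emcn at 22.9 and 45.5 TPM. Haematopoietic markers summed to 104 and 127 TPM at W12, of which Cd74 gave 102 and 124 TPM, against 2.81 to 27.5 TPM before. The other 6 haematopoietic markers stood at 1.04 TPM or less in both W12 libraries, among them Ptprc, which encodes the CD45 that the sort excluded, at 0.0184 and 0.327 TPM. Fibroblast markers summed to 13.7 and 28.1 TPM at W12, of which Dcn gave 13.2 and 27.2 TPM, against 4.06 TPM or less from D0 to W2 and in W6 replicate 1. The other 5 fibroblast markers stood at 0.498 TPM or less in both W12 libraries. Krt8, a keratin gene on none of these lists, was higher as well, at 46.3 and 145 TPM at W12 against 5.84 TPM or less before. The part of endothelial RNA in the W12 values was not tested. Epidermal basal markers summed to 45450 and 47237 TPM at W12, within their range of 35501 to 60587 TPM from D0 to W6. Some low members had their highest value in W6 replicate 2, the library with Dcn at 51.2 TPM, but how often low genes at large peaked there was not computed. In that library the other 5 fibroblast markers stood at 0.550 TPM or less, and its Col1a1, Col1a2 and Col3a1 values lay below those of D0 replicate 2.

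**Figure D5:**
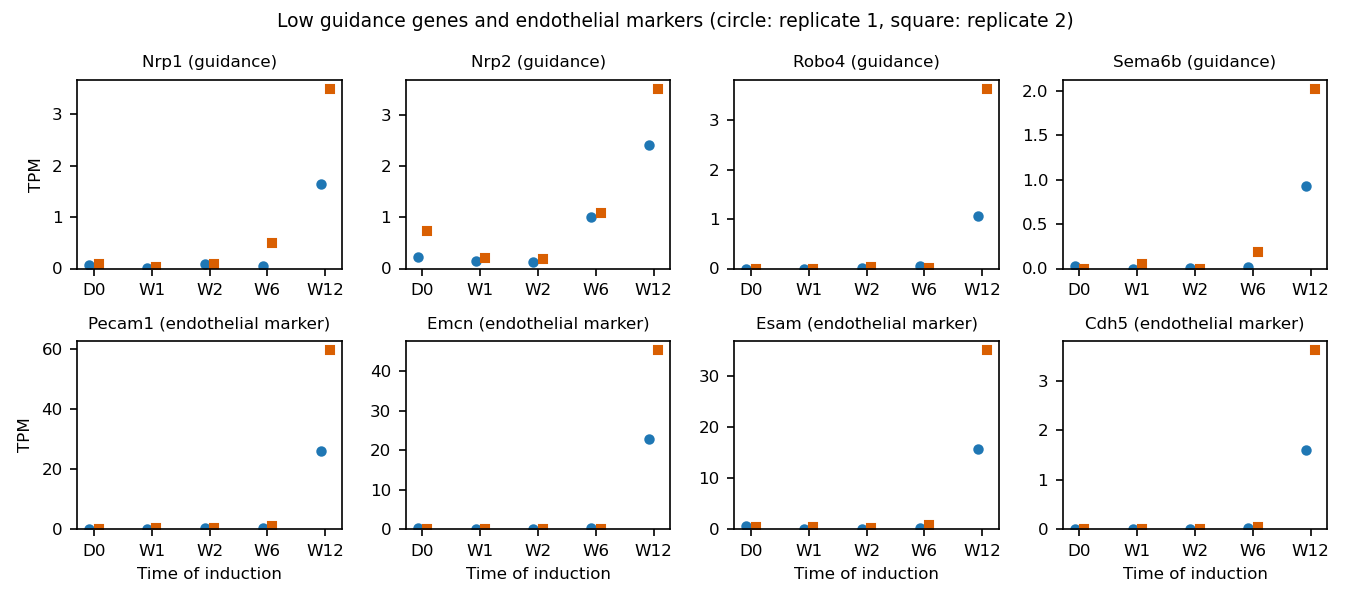
TPM (vertical, linear axes from 0) at each timepoint (horizontal) of 4 guidance genes with a mean below 1 TPM (upper row) and 4 endothelial markers (lower row), with 1 point per library. Nrp1 reached 1.65 and 3.50 TPM and Pecam1 26.1 and 59.8 TPM at W12, and all 8 genes were highest in both W12 libraries.

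Other genes of these pathways were taken as a list of 46, comprising 16 partners at the cell surface, such as netrin receptors, and 30 others, mostly inside the cell, such as kinases and adaptors. All 46 were found and 30 were tested. At W1, 4 were called higher and 0 lower by limma (background 5.79 and 4.1 percent of all genes tested), with 11 at an unadjusted P under 0.05, and at W2 5 were higher and 2 lower (background 9.06 and 6.64 percent). At W6 5 were higher and 4 lower, which is near the background of 18.3 and 14.1 percent. At W12 3 were higher and 11 lower (background 17.9 and 25.1 percent), with a median change of −0.46 beside −0.93 for the guidance genes and −0.08 for all genes tested.

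The largest falls of the list at W12 were those of Rgmb, a co-receptor in neogenin and BMP signalling, Tiam1, an activator of Rac, and Vav2, an exchange factor acting below Eph receptors. Rgmb measured 91.0 and 88.3 TPM at D0 and 15.47 and 18.7 TPM at W12 (−2.33 ± 0.18, adjusted P = 3.9e-05 by limma). Tiam1 was at 25.3 and 41.6 TPM at D0 and 9.58 and 8.47 TPM at W12 (−1.74 ± 0.25, adjusted P = 0.000944), and Vav2 at 3.79 and 12.2 TPM and 1.07 and 1.76 TPM (−1.73 ± 0.45, adjusted P = 0.015). Of the netrin receptors, Neo1 was lower at W12 (−0.72 ± 0.16, adjusted P = 0.00723) as was Unc5b (−1.53 ± 0.34, adjusted P = 0.00738), while Dcc stayed at 0.0723 TPM or less in every library.

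The 3 rises were those of Rnd1, whose product binds plexins, Fyn, a kinase acting below Eph receptors and plexins, and Vav3. Rnd1 stood at 1.61 and 1.62 TPM at D0, at 0.562 TPM or less from W1 to W6 and at 28.4 and 58.6 TPM at W12 (4.0 ± 0.31, adjusted P = 4.47e-05 by limma), so it was high in the 2 libraries that also held endothelial markers. Fyn was at 0.392 and 0.386 TPM at D0, 3.01 and 6.48 TPM at W6 and 4.18 and 7.03 TPM at W12 (2.22 ± 0.33, adjusted P = 0.00121), which places its increase before W12. Vav3 was at 32.2 and 25.8 TPM at D0 and 49.2 and 50.3 TPM at W12 (0.77 ± 0.15, adjusted P = 0.00475).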

How the data were processed

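Sorted EpdSCs of 5 timepoints with 2 libraries each were grouped by the sample labels, and every sample column was matched to a sample. The authors made RNA libraries with a SMARTer low-input kit, trimmed reads with Skewer, quantified transcripts with Salmon 1.4.0 against a GENCODE index of GRCm38 to which the transgene had been added, and deposited TPM per gene, summed with Tximport 1.12.3. As TPM hold no read totals, the depth of the libraries and the precision it gives are unknown. As every library has the same TPM total, a change in abundant transcripts moves the TPM of the others. A table of the authors' DESeq2 comparison of SOX9-positive and SOX9-negative placode cells, with their fold changes and P values, was not used.

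The 13110 genes that averaged at least 1 TPM were tested on log2(TPM + 1) with limma 3.58.1 in R 4.3.3, which fitted the timepoint means over all 10 libraries (eBayes with trend) and P values were adjusted over these genes by the Benjamini-Hochberg method. The threshold was an adjusted P under 0.05. The fit was tested on simulated data. With TPM, the DESeq2 test on counts named in the study's methods was not run. Replicates are different mice, and P values rest on 2 per group. At D0 the median absolute log2 difference between replicates was 0.51 for members and 0.307 for all genes. At W6 it was 0.571 and 0.318, and members differed more at the other timepoints too. Python 3.11.15 with numpy 2.4.6, pandas 2.3.3 and matplotlib 3.10.9 did the other steps. Positions are those of GENCODE M21 (GRCm38), which matched all 64 members.

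Values in every library are given for the member with the highest mean TPM of each family, for the 5 largest rises and 5 largest falls called in each comparison with D0, for the 3 largest each way in the steps from W2 to W6 and W6 to W12, and for members called in both directions. Of the related genes, the 3 largest rises and falls called at W12 are named. Ephb3, Ephb4, Efna2, Efna3, Efna5, Plxna2, Plxna3, Neo1, Unc5b and other members given by range complete their families. Members and lists were chosen with earlier results of these data known. The alternatives tried were a pseudocount of 0.1 TPM, no filter, a filter at 5 TPM, median-ratio and quantile scaling, eBayes without trend, only the 4 libraries compared, an absolute log2 change of at least 1, a replicate block and each library left out in turn. A block with crossed numbers was added after seeing the data.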

Additional observations from a re-analysis of the deposited data

How the results depend on the processing

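Depth is unknown from TPM, so no limit of detection can be set, and 2 libraries per timepoint set the precision. Of 65 recomputed counts of called members, apart from those leaving out a library, 56 stayed within 1.5 times the value reported. With no filter on low values the calls numbered 2 at W1, 4 at W2 and 2 from W2 to W6, against 9, 9 and 11, and the split changed from 1 higher and 10 lower to 2 and 0 from W2 to W6, from 0 and 12 to 4 and 7 from W6 to W12 and from 3 and 19 to 12 and 16 at W12. Fits to the 4 compared libraries alone gave 3 at W1, 7 at W6, 4 from W2 to W6 and 3 from W6 to W12, against 9, 14, 11 and 12, and turned 5 higher and 4 lower at W2 into 3 and 5. A log2 change of at least 1 left 7 from W2 to W6. The cause of these shifts was not tested. Leaving out 1 library at a time gave 2 to 12 calls at W1, 3 to 10 at W2, 9 to 18 at W6, 16 to 25 at W12, 1 to 14 from W2 to W6, 3 to 17 from W6 to W12 and 21 to 32 variable members. A replicate block left 6 calls from W2 to W6 and otherwise 7 at W1, 9 at W2, 14 at W6, 22 at W12, 11 from W6 to W12 and 29 variable members, and 3 of 42 changes of single genes lost their call under it. Same-numbered libraries are different mice, their deviations correlated by −0.129 to 0.0934, and the numbers do not pair them. With the numbers crossed, an alternative chosen after seeing the data, there were 9 calls at W1, 14 at W6 and 16 from W6 to W12. Of these 42 changes of single genes, which are the largest rises and falls called in each comparison, 19 were called under every alternative and 0 turned direction. Scaling moved the split of calls over all genes: 58.6% were higher at W1, 57.7% at W2, 56.5% at W6 and 33% from W6 to W12, against 44.8%, 45.7%, 45.2% and 55.8% with median-ratio scaling, which shifted the median of all genes by −0.10 at W1, −0.13 at W6 and 0.14 from W6 to W12. For the guidance genes this scaling gave 5 higher and 3 lower at W1, 5 and 5 at W2, 5 and 9 at W6 and 3 and 18 at W12, and quantile normalization 5 and 3, 5 and 4, 4 and 9, and 3 and 20.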
